A study of Mus musculus with 20 samples.

Results

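The MHC class II genes followed here are Ciita, Cd74, H2-Aa, H2-Ab1, H2-Eb1, H2-DMa and H2-Oa. They are 7 of 30199 gene names on the array and were taken by symbol from its annotation, which gave 8 probes (2 of them for H2-Ab1) of 39429, and all 8 were among the 22264 probes that were tested. The genes were chosen by measured values, namely the signal of the Ciita probe in Peyer's patch (PP) cells and the class II signal on 1 of the 2 PP slides. Differences between PP and peripheral lymph nodes (pLN), and between the PP slides, are therefore given as descriptions without a test.

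RNA of sorted CD4 T cells was measured on 20 single-colour arrays, 1 per sorted pool of 8 to 15 mice of mixed sex, 8 to 14 weeks old. All mice were of the strain B6.Cg-Foxp3<tm1Mal>, whose Foxp3-positive cells carry GFP, so every group shares that allele. From pLN of mice given KLH in Alum under the skin, naive T, TFH GL7+, Treg and TFR cells were sorted. This was done at day 12 with 2 arrays for each population (pLN d12) and at day 25 with 1 array for each (pLN d25). PP gave TFH GL7+, TFH GL7-, Treg and TFR cells, again with 2 arrays for each. The sort took B220-negative CD4+ cells. Naive T cells were GFP-negative and low for PD1 and GL7, TFH cells GFP-negative and PD1-high, Treg cells GFP-positive and low for PD1 and GL7, and TFR cells GFP-positive and PD1-high with or without GL7. GL7 is a carbohydrate epitope carried by germinal-centre cells.

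MHC class II molecules show peptides from engulfed material to CD4 T cells. Ciita is the coactivator that switches the class II genes on, by docking to the RFX, CREB and NF-Y factors bound to the X and Y boxes of their promoters. B cells, dendritic cells and macrophages express the genes at a high level, whereas T cells of the mouse, unlike activated human T cells, are usually regarded as class II negative. H2-Aa and H2-Ab1 encode the alpha and beta chains of I-A, H2-Eb1 the beta chain of I-E, Cd74 the invariant chain that guards the empty groove, H2-DMa a chain of the peptide exchanger H2-DM, and H2-Oa a chain of its inhibitor H2-O.

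The promoters of H2-Aa, H2-Eb1 and H2-Oa show the module that Ciita works through. The stretches below are from RefSeq (GRCm38.p6), 5′ to 3′ on the strand of the gene, and end 28 to 44 bases before the start site. Capitals mark GCAAC, letters found in X boxes, and CTGATTGG, letters of the Y box.
H2-Aa, chr17:34287857-34287914, minus strand: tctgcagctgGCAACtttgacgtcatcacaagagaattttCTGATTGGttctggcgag
H2-Eb1, chr17:34305766-34305822, plus strand: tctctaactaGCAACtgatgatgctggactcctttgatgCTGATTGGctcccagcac
H2-Oa, chr17:34092293-34092350, plus strand: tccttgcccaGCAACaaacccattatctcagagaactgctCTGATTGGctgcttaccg
The spacer between both motifs was 24 or 25 bases. On either strand, CTGATTGG occurred in 4.1% and GCAAC in 35.2% of 32851 promoter windows of 300 bases, but GCAAC lay 10 to 30 bases before CTGATTGG on the strand of the gene in only 14 windows (0.0426%), 3 of them those of H2-Aa, H2-Eb1 and H2-Oa. The motif letters and the spacing were chosen with these promoters in view. Both windows of H2-DMa lacked CTGATTGG.

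Normalised intensities are on the authors' scale, on which the 75th percentile of an array is 1500 and the lowest value 20. All 8 probes were detected on all 20 arrays, meaning that at least 3 of 4 on-chip features were well above background. The 5 slides of 4 arrays held 1 tissue and day each: pLN d12 on slides 1 and 2, pLN d25 on slide 3 and PP on slides 4 and 5. The T-cell identity of the sorts was borne out by their markers, since Cd4 lay between 31994 and 135500 on all arrays and Foxp3 between 13409 and 35129 on the Treg and TFR arrays, against at most 192 elsewhere. Markers of other cells were also present. The summed intensity of 13 B-cell markers was 24483 to 170384 on slide 4, 6991 to 17055 on slide 5, 6512 to 22434 on slides 1 and 2 and 6102 to 14918 on slide 3, and 5 of the 13 were detected on all 20 arrays. In such pools, fewer cells of a type and less RNA per cell cannot be told apart.

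**Figure D1:**
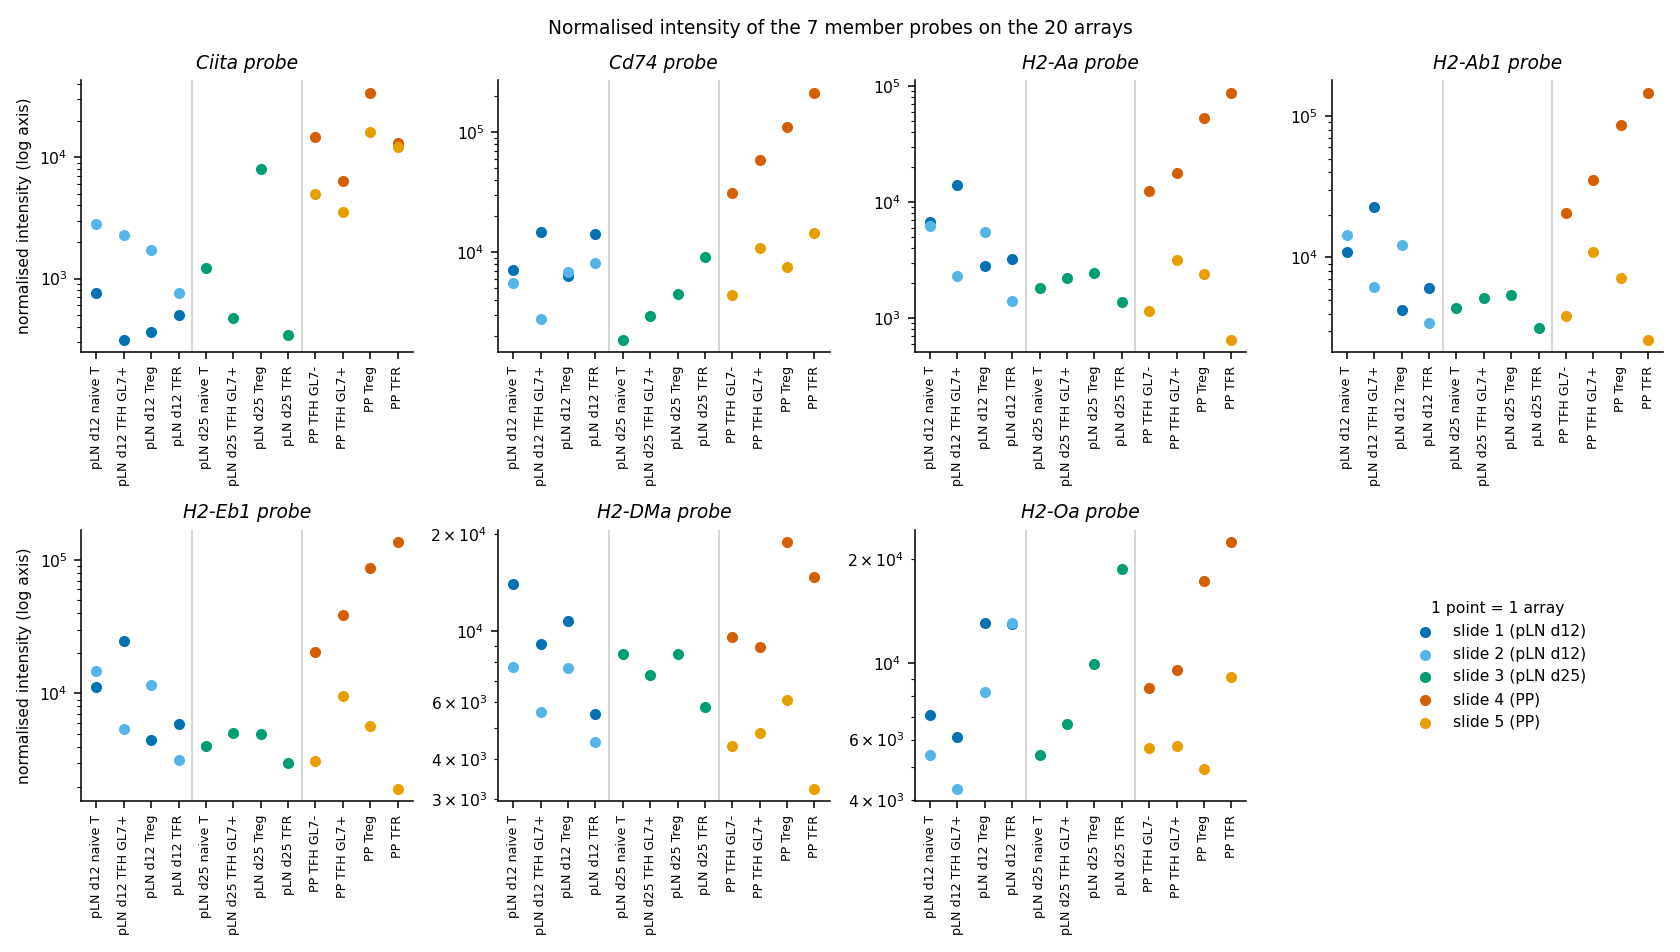
Normalised intensity (log axis, arbitrary units) of the member probes by group, 1 point per array, coloured by slide, with H2-Ab1 shown by its brighter probe. The highest array of the class II chains and of Cd74 is the PP TFR array of slide 4, while the Ciita probe is high on the PP arrays of both slides and on the pLN d25 Treg array.

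H2-Aa had the widest range of the members over the 20 arrays, 134-fold, and the Ciita probe (51.4-fold) over the 16 arrays without slide 4. H2-Aa read 6706 and 6186 in naive T cells, 14007 and 2289 in TFH, 2832 and 5533 in Treg and 3200 and 1405 in TFR cells of pLN d12 (slide 1, then slide 2). It read 1829, 2205, 2420 and 1374 in the same populations of pLN d25. In PP it read 12520 and 1153 in TFH GL7-, 17734 and 3190 in TFH GL7+, 53268 and 2377 in Treg and 87446 and 651 in TFR cells (slide 4, then slide 5). The highest and the lowest array of the series were thus both PP TFR arrays, 134-fold apart. H2-Ab1 (2628 to 146113) and H2-Eb1 (1926 to 136022) also had their extremes on these 2 arrays. H2-Aa, H2-Ab1 and H2-Eb1 ran together, with Pearson r of 0.98 to 1.00 over the 20 arrays and 0.94 to 0.99 over the 16 arrays without slide 4, given as a description over arrays that share slides. The other probe of H2-Ab1 overlaps the first and followed it at r = 1.00. For none of the 3 genes did any neighbouring groups of 2 arrays in the order of their means differ by more than the spread between arrays.

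Cd74, the invariant chain, ranged 115-fold over the 20 arrays and 7.98-fold without slide 4. It read 7121 and 5553 in naive T, 14886 and 2798 in TFH, 6369 and 6818 in Treg and 14319 and 8113 in TFR cells of pLN d12. In pLN d25 it read 1866 in naive T, 2939 in TFH, 4469 in Treg and 9075 in TFR cells. In PP it read 31492 and 4358 in TFH GL7-, 58788 and 10810 in TFH GL7+, 111730 and 7472 in Treg and 214758 and 14360 in TFR cells. On slide 4 every population was above every array of the other slides. With slide 4 its r to the 3 chains was 0.80 to 0.82, without slide 4 it was 0.18 to 0.20.

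H2-DMa and H2-Oa varied far less, 5.84-fold and 5.19-fold over all arrays. H2-DMa read 13998 and 7746 in naive T, 9103 and 5597 in TFH, 10688 and 7666 in Treg and 5533 and 4516 in TFR cells of pLN d12, and 8447, 7287, 8498 and 5799 in pLN d25. In PP it read 9577 and 4378 in TFH GL7-, 8907 and 4819 in TFH GL7+, 18855 and 6120 in Treg and 14683 and 3231 in TFR cells. On each of the 5 slides the TFR array was thus below the Treg array. H2-Oa read 7081 and 5400 in naive T, 6113 and 4317 in TFH, 13098 and 8232 in Treg and 12954 and 13064 in TFR cells of pLN d12, and 5424, 6655, 9942 and 18752 in pLN d25. In PP it read 8439 and 5659 in TFH GL7-, 9563 and 5766 in TFH GL7+, 17281 and 4928 in Treg and 22407 and 9093 in TFR cells. On each of the 5 slides the TFR array was above the TFH GL7+ array.

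The Ciita probe followed none of these genes. It read 757 and 2807 in naive T, 314 and 2279 in TFH, 359 and 1712 in Treg and 505 and 762 in TFR cells of pLN d12, so that every slide 2 array was above its slide 1 partner. In pLN d25 it read 1220 in naive T, 474 in TFH, 7971 in Treg and 339 in TFR cells, the Treg array standing at the level of PP. In PP it read 14539 and 4941 in TFH GL7-, 6326 and 3553 in TFH GL7+, 34046 and 16119 in Treg and 13166 and 12064 in TFR cells. All 8 PP arrays were above all 8 pLN d12 arrays. Among groups of 2 arrays, PP Treg cells ranked first and PP TFR cells next, with no overlap between their arrays, followed by PP TFH GL7- and PP TFH GL7+ cells, which overlapped. Its r to the 3 chains was 0.35 to 0.46 over 20 arrays and -0.37 to -0.11 over the 16 without slide 4.

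The only Ciita probe, 60 bases long on chromosome 16 (array annotation), is rich in A. Of its bases 65% are A, against a median of 28.3% over the tested probes. Among the 10 genes of most similar profile over the 20 arrays were Prg4, Retn, Ttc37, Tenm1, Thnsl1, Cacnb4, Cacna1a, Cert1 and Kansl1, and the r of the 10 was 0.991 to 0.995. Prg4 encodes the joint lubricant lubricin, Retn the fat-cell hormone resistin, Tenm1 a teneurin, and Cacnb4 and Cacna1a calcium channel subunits of neurons. The 30-base windows with most A of the probes of Retn, Ttc37 and Thnsl1 and of 2 class II chains follow here to compare their base composition, 5′ to 3′ as on the array, with runs of 3 or more A in capitals.
Retn, bases 23 to 52: acaagcacacatacttAAAAAtAAAAcAAA
Ttc37, bases 30 to 59: atcttgAAAAgaatAAAAAAtAAAAAcAAA
Thnsl1, bases 26 to 55: AAAAcAAAcAAAcAAAcAAAcAAAcAAAca
H2-Aa, bases 29 to 58: aaggtggactgcAAAAcatagctgtagtaa
H2-Eb1, bases 30 to 59: gcttttttacatttttctcAAAtAAAcAAA
The windows of Retn, Ttc37 and Thnsl1 hold 19, 21 and 23 A, and those of H2-Aa and H2-Eb1 12 and 11.

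The same held beyond the leading genes. Of the tested probes, 195 (120 RefSeq genes) had r of at least 0.9 with the Ciita probe, and 68.7% of these held 40% A or more, against 7.4% of all tested probes. The Ciita probe and 44 other tested probes hold AAAACAAAAC. Among the 44, the median r with Ciita was 0.93 and 52.3% reached 0.9. Over all tested probes these values were -0.02 and 0.88%, and of the 57 probes with the reverse complement GTTTTGTTTT none reached 0.9. Without slide 4, the median r of the 44 probes was 0.90 and 50% reached 0.9. A content alone sorted them less well, since of 145 other probes with 50% A or more 24.1% reached 0.9, at a median r of 0.39. These sequence features were looked up after the like probes had been seen. The 44 probes were also higher in PP than in pLN d12 Treg cells, by a median log2 difference of 2.69 against -0.05 over all tested probes. Whether the signal of this probe comes from Ciita RNA was not tested, which holds for every Ciita value given here.

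**Figure D2:**
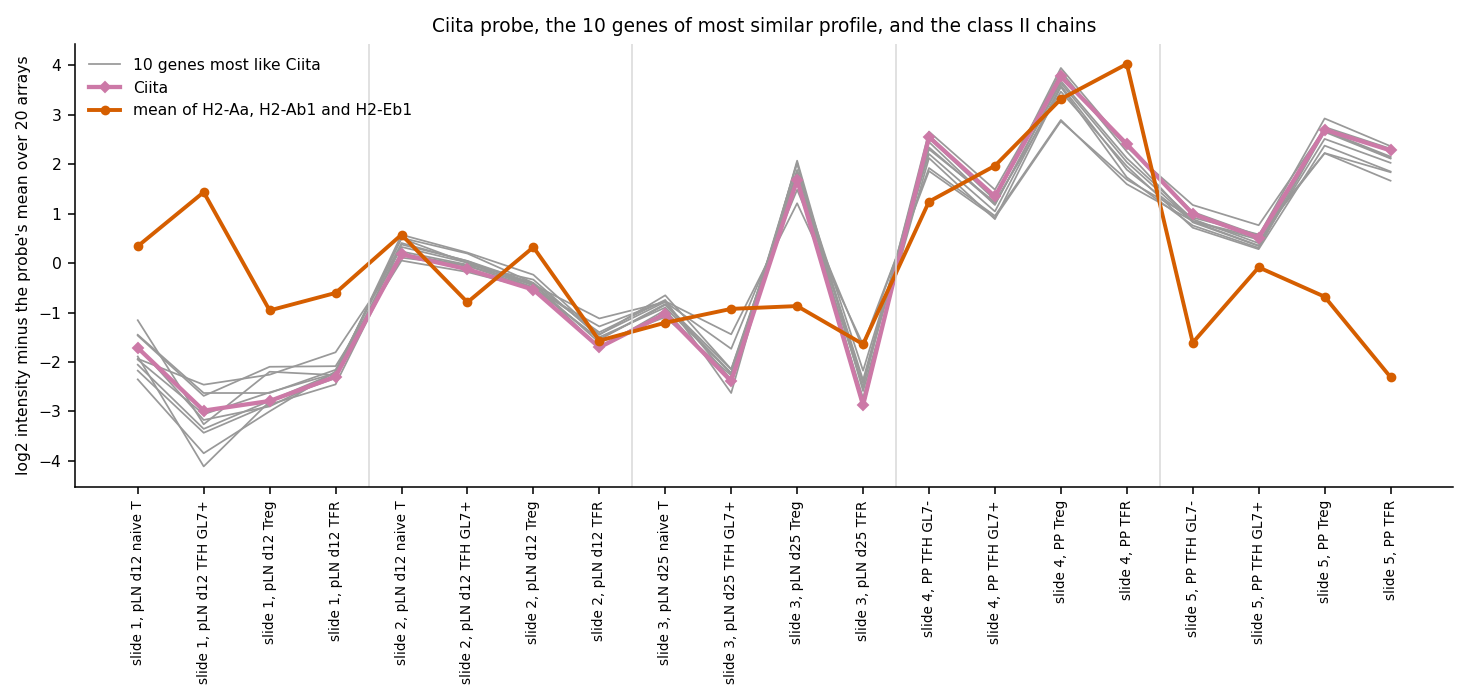
Log2 intensity on each of the 20 arrays (x axis, by slide and group) minus the mean of the probe, for Ciita, for each of the 10 genes of most similar profile and for the mean of H2-Aa, H2-Ab1 and H2-Eb1. The Ciita line runs with the 10 genes (r of 0.991 to 0.995) and parts from the class II chains on slides 1, 3 and 5.

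**Figure D3:**
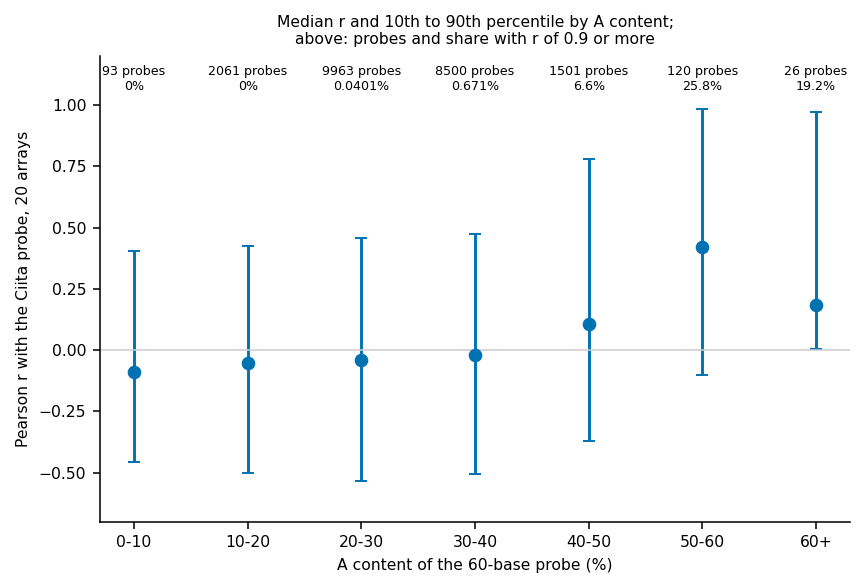
Pearson r of the tested probes with the Ciita probe over 20 arrays (y axis) by A content of the probe in percent (x axis), as median with the 10th to 90th percentile, with the number of probes and the share at r of 0.9 or more above each bin. The share is 0.671% at 30 to 40% A, 6.6% at 40 to 50% and 25.8% at 50 to 60%.

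Taken as a group, the members had other genes nearest to them. The mean of the 7 standardised members was most like Tnfrsf13c (the BAFF receptor of B cells, r = 0.967), and Fcer2a (CD23), Siglecg, Napsa, Cyp4f18, Wdfy1, Ebf1, Ly86 and Nxpe2 (0.947) were also among the first 10. Over the 16 arrays without slide 4 the first was again Tnfrsf13c (0.956), and Blnk, Fcer2a, Btnl1, Syk, Bcl11a, Siglecg, Cr2 and Gja4 (0.872) were among the first 10. Several of these, such as Fcer2a, Blnk, Cr2 and Ebf1, are known as genes of B cells. The part of B-cell RNA in the member values was not tested.

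The 2 PP slides were compared population by population, 1 array against 1. In all 4 populations all 7 members were higher on slide 4. At least 2-fold higher on slide 4 were 4 members in TFH GL7+ cells (background 4.83% of tested probes), 6 in TFH GL7- (5.77%), 7 in Treg (7.44%) and 6 in TFR cells (7.44%). The median log2 difference of the members was 1.69, 2.42, 3.59 and 3.90 in that order, while the median over all tested probes lay between -0.06 and 0.01. H2-Aa differed most, with log2 differences of 2.48, 3.44, 4.49 and 7.07. The Ciita probe differed by 0.83, 1.56, 1.08 and 0.13, and was the least different member in Treg and TFR cells.

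Markers of other cell types moved with this slide difference. The median log2 difference of the 13 B-cell markers was 1.79 in TFH GL7+, 2.67 in TFH GL7-, 3.55 in Treg and 5.82 in TFR cells, and 12, 10, 11 and 12 of the 13 were at least 2-fold higher on slide 4. Ms4a1, which encodes CD20, read 28140 on slide 4 and 188 on slide 5 in TFR cells. The 8 epithelial markers had medians of 2.0, 2.16, 3.81 and 2.19, and their sum was 5636 to 13272 on slide 4 and 1063 to 2597 on slide 5. Vil1, the villin of the gut lining, was detected on the 4 arrays of slide 4 only, at 303 to 939. The 12 dendritic cell and macrophage markers had medians of 0.33, 0.02, 0.32 and 0.70. Of these, the dendritic cell markers Xcr1 and Clec9a were not detected on any array, whereas Siglech, Itgam and Cst3, which make up most of the summed list, were detected on every one. The summed list read 77290 to 117890 in pLN d12 and d25, 108643 to 125929 on slide 4 and 152624 to 174713 on slide 5. Single markers of the list differed from this sum, and 6 of the 12 were at least 2-fold higher on slide 4 in TFR, 5 in Treg, 2 in TFH GL7- and 1 in TFH GL7+ cells. In TFR cells Flt3, a growth factor receptor of dendritic cell precursors, was 11.1-fold, Lyz2, the lysozyme of macrophages, 6.92-fold and Itgax, which encodes CD11c, 4.73-fold higher on slide 4. The part of these cells in the member values was not tested.

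The same pairing of class II chains and B-cell markers was seen once in pLN. In TFH cells of d12, slide 1 was above slide 2 by a log2 difference of 2.61 for H2-Aa, 1.88 for H2-Ab1, 2.19 for H2-Eb1 and 2.41 for Cd74. There Ms4a1 differed by 3.19 and Fcer2a by 3.38. The Ciita probe went the other way, by -2.86.

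**Figure D4:**
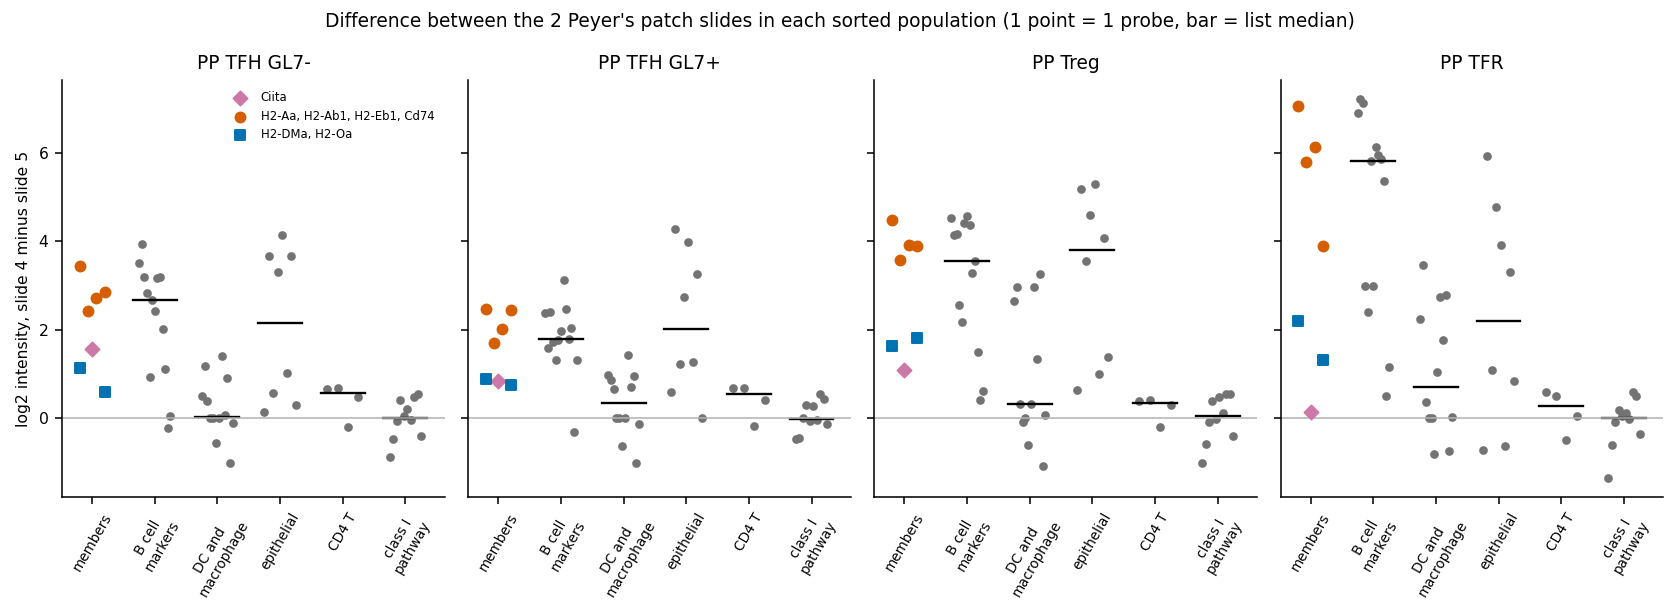
Log2 intensity on slide 4 minus slide 5 (y axis) for the members and for 5 gene lists (x axis) in each PP population, 1 point per probe, bars at list medians. The class II chains and Cd74 lie above H2-DMa, H2-Oa and Ciita in every population, while the median of the class I genes is near 0.

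Between PP and pLN d12, the members were compared as means and for slide 5 alone. In Treg cells the Ciita probe was 29.9-fold higher in PP, and 20.5-fold on slide 5. In TFR cells it was 20.3-fold and 19.5-fold higher, and in TFH GL7+ cells 5.61-fold and 4.2-fold. In Treg cells the AAAAC probes of other genes were also higher in PP, as given above. For these probes no such value was taken in TFR and TFH GL7+ cells. Both PP arrays were above both pLN d12 arrays for 2 members in Treg cells (Ciita and Cd74, background 15.8% of tested probes), 1 in TFH GL7+ cells (Ciita, background 24.5%) and 2 in TFR cells (Ciita and Cd74, background 25.4%). No member had both PP arrays below both pLN d12 arrays, against 22.8%, 20.7% and 27% of tested probes in Treg, TFH GL7+ and TFR cells. For H2-Aa the mean was 2.84-fold higher in PP Treg and 3.56-fold higher in PP TFR cells, but on slide 5 it was 0.60-fold and 0.31-fold the pLN level, below both pLN arrays. H2-Ab1 and H2-Eb1 behaved alike in TFR cells, with 0.57-fold and 0.45-fold on slide 5. H2-DMa was below both pLN arrays on slide 5 in all 3 populations, at 0.65-fold to 0.68-fold. H2-Oa was below both in Treg (0.47-fold) and TFR cells (0.70-fold) but not in TFH GL7+ cells (1.12-fold). For slide 5 alone no share over all tested probes was taken. The median log2 difference of the members turned from 1.63 to -0.33 in Treg, from 0.72 to -0.11 in TFH GL7+ and from 1.91 to -0.63 in TFR cells when slide 5 stood for PP. Tissue and slide cannot be told apart, as each slide held 1 tissue.

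Within a tissue, populations were compared with a single model over all arrays (limma), in which a call needed a 2-fold change and an adjusted p under 0.05. None of the 7 members was called in any of the 7 comparisons by limma, and only H2-Oa in TFR against TFH cells of pLN d12 had an unadjusted p under 0.05. The shares of all tested probes called were 14.7% in TFH against naive T cells, 3.76% in Treg against naive T cells, 8.35% in TFR against Treg and 5.01% in TFR against TFH cells of pLN d12. In PP they were 9.25% in TFR against Treg, 3.44% in TFR against TFH GL7+ and 0.00898% in TFH GL7+ against TFH GL7- cells. The methods' t-test for the last comparison gave 0 members at an unadjusted p under 0.05. With n = 2 arrays a group and 1 spread shared by all arrays, slide 4 included, the standard errors were wide. They were 1.60 for Cd74 and 0.59 for H2-Oa on the log2 scale. In the pLN d12 comparisons they were 0.78 and 0.30 without slide 4, and 0.57 and 0.28 with slide as a block. The labels do not tie arrays to separate experiments, so p-values measure the spread between these arrays.

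H2-Oa came nearest. In pLN d12 TFR and TFH cells differed by 1.34 on the log2 scale (SE 0.59, 95% interval 0.03 to 2.65, limma adjusted p 0.301). With slide as a block the SE was 0.28, and H2-Oa was called (limma adjusted p 0.0115), where 8.24% of all tested probes were called. No other member was called in any comparison with the block, against 19.1% of tested probes in TFH and 6.11% in Treg against naive T cells, 12.2% in pLN TFR against Treg, 13.9% in PP TFR against Treg, 6.18% in PP TFR against TFH GL7+ and 0.018% in TFH GL7+ against TFH GL7- cells. Up to 2 members a comparison had an unadjusted p under 0.05 there. Within slides, TFR exceeded TFH GL7+ cells by 1.08, 1.60, 1.5, 1.23 and 0.66 on slides 1 to 5. Against Treg cells, TFR cells differed by -0.02, 0.67, 0.92, 0.37 and 0.88. Treg cells exceeded naive T cells on all 3 pLN slides, by 0.89, 0.61 and 0.87 (limma adjusted p 0.961 for d12 and 0.125 with the block). The share of all tested probes with 1 sign on every slide was not taken, here or for the genes below.

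H2-DMa ran the opposite way. TFR cells were below Treg cells by 0.95, 0.76, 0.55, 0.36 and 0.92 on the log2 scale on slides 1 to 5. The fit gave -0.86 in pLN d12 (SE 0.75, limma adjusted p 0.6) and -0.64 in PP (adjusted p 0.739). With slide as a block the adjusted p was 0.038 and 0.1, at a change under the 2-fold needed for a call. TFH cells were below naive T cells on all 3 pLN slides, by 0.62, 0.47 and 0.21.

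Cd74 was higher in TFR than in Treg cells on all 5 slides, by 1.17, 0.25, 1.02, 0.94 and 0.94. The fit gave 0.71 in pLN d12 and 0.94 in PP (SE 1.60 each, limma adjusted p 0.883 and 0.845), and neither was called with slide as a block (0.352 and 0.225). Against TFH GL7+ cells the differences were -0.06, 1.54, 1.63, 1.87 and 0.41. In PP, Cd74 was 0.90 and 1.31 higher in TFH GL7+ than in TFH GL7- cells, and H2-Aa, H2-Ab1 and H2-Eb1 were higher on both slides as well (0.50 to 1.61), all with a limma adjusted p of 1.

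Between TFR and Treg or TFH GL7+ cells, the within-slide differences of the chains had no common sign. H2-Aa in TFR minus TFH GL7+ cells was -2.13, -0.70, -0.68, 2.30 and -2.29 on slides 1 to 5, so slide 4 stood alone on the positive side, as it did for H2-Ab1 and H2-Eb1. For TFR minus Treg cells all 3 were positive on slides 1 and 4 and negative on slides 2, 3 and 5. Ciita was lower in TFH than in naive T cells on all 3 pLN slides, by 1.27, 0.30 and 1.36, and lower in TFH GL7+ than in TFH GL7- cells on both PP slides, by 1.2 and 0.48, none of it called. The change from Treg to TFR cells in PP minus that in pLN d12 ranged from -0.56 (Ciita) to 0.32 (H2-Aa) on the log2 scale. For the change from TFH GL7+ to TFR cells it ranged from -0.40 (H2-Oa) to 1.86 (Ciita). These values are descriptions, since the members were chosen by PP values. With the wide spread between arrays, slide 4 included, they cannot show whether the changes differ between PP and pLN.

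**Figure D5:**
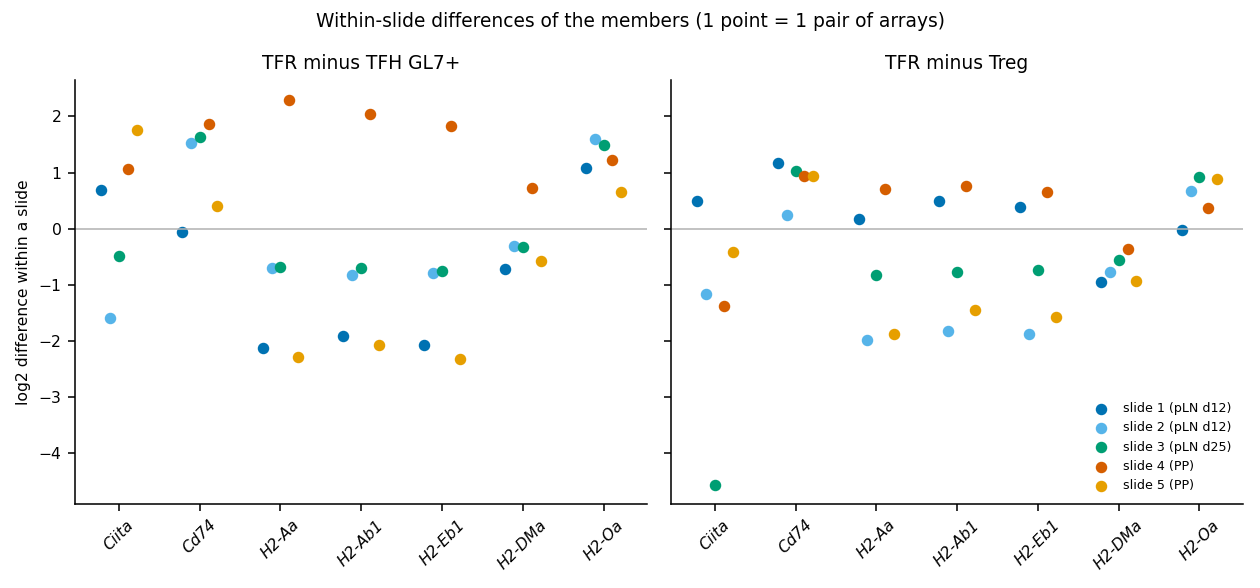
Log2 difference within a slide (y axis) of TFR minus TFH GL7+ cells (left) and TFR minus Treg cells (right) for each member, 1 point per slide. H2-Oa lies above 0 on all 5 slides on the left, H2-DMa below 0 and Cd74 above 0 on all 5 slides on the right, while the chains change sign between slides. The share of all tested probes with 1 sign on all 5 slides was not taken.

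H2-Ob, the partner chain of H2-Oa in H2-O, was followed from the list of other class II genes. It read 5553 and 3375 in naive T, 1840 and 910 in TFH, 6119 and 5354 in Treg and 1661 and 1492 in TFR cells of pLN d12, and 3908, 1087, 5123 and 1379 in pLN d25. Both follicular populations were thus below both others on all 3 pLN slides. The log2 difference was -1.74 in TFH against naive T and -1.86 in TFR against Treg cells of d12 (SE 0.76 each, limma adjusted p 0.157 and 0.17). Both were called with slide as a block (limma adjusted p 0.0018 and 0.00214) and without slide 4 (0.0336 and 0.0436). In PP, TFR minus Treg was 0.23 on slide 4 and -0.64 on slide 5. TFR minus TFH GL7+ was 1.72 and 0.70 there, a mean of 1.21 that was called with the block only (limma adjusted p 0.0339, and 0.764 without it), and H2-Oa was higher in the same comparison by 0.94 (0.0621 with the block). In TFR against Treg cells of pLN, H2-Ob was lower on all 3 slides and H2-Oa was not (-0.02, 0.67 and 0.92), a difference between both genes that was not tested.

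The 4 tested genes of that list were H2-DMb1, H2-DMb2, H2-Ob and H2-Eb2. In the limma fit over all arrays without the block, none of them was called. There 1 had an unadjusted p under 0.05 in TFH against naive T and 1 in TFR against Treg cells of pLN d12. H2-DMb1, H2-DMb2 and H2-Eb2 had their highest array in PP TFR cells of slide 4 (6839, 9365 and 8069). H2-Ea-ps, the defective I-E alpha gene of the C57BL/6 haplotype, was at the floor of 20 and not detected on any array.

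The partners of Ciita at the promoter did not pass the test. Of 8 enhanceosome genes (Rfx5, Rfxap, Rfxank, Nfya, Nfyb, Nfyc, Creb1 and Atf1), limma called 0 in each of the 7 comparisons, with 0 to 2 at an unadjusted p under 0.05. Their median log2 change stayed between -0.11 and 0.02, against -0.09 to 0.01 over all tested probes. Of 10 class I genes, among them the class I coactivator Nlrc5 and B2m, limma also called 0 in each, with 0 to 2 at an unadjusted p under 0.05. Their median lay between -0.22 and 0.19.

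Some known inducers and repressors of Ciita were called. Of 12 genes, 2 were higher and 2 lower in TFH than in naive T cells, 3 higher in Treg than in naive T cells, and 1 higher and 1 lower in TFR than in Treg cells of pLN. Of all tested probes, 14.7%, 3.76% and 8.35% were called in these comparisons. Whether the counts of this short list differ from such shares was not tested. Zbtb32, a repressor of Ciita, was at least 30.2-fold higher in TFH and at least 7.29-fold higher in Treg than in naive T cells (limma adjusted p 9.26e-05 and 0.00584), with both naive arrays not well above background, and higher in TFR than in Treg cells by 3.16 on the log2 scale (SE 0.59). Prdm1, which encodes the repressor Blimp-1, was higher in TFR than in TFH cells by 1.88 in pLN d12 and 2.62 in PP (limma adjusted p 0.0225 and 0.00481), and neither was called without slide 4. Ifngr1, a chain of the interferon gamma receptor, was lower in TFH than in naive T cells (-1.17) and in PP TFR than in PP Treg cells (-1.91). In PP, the 2 called genes of the list in TFR against Treg cells, Ifngr1 and Socs1 (-1.45), were both lower, where 9.25% of all tested probes were called.

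Genes of antigen processing and class II turnover were called in 4 of the 7 comparisons. Of 9 genes, 3 were higher and 0 lower in TFH than in naive T cells, and the same counts held for TFR against Treg cells in PP. The shares of all tested probes called were 14.7% and 9.25%. The median log2 change of the 9 genes was 0.67 and 0.58 against -0.09 and -0.05 over all tested probes in these 2 comparisons. Ctsl, cathepsin L, was higher by 2.01 and 2.93, and Ctsb, cathepsin B, by 1.5 and 1.34. Marchf8, a ligase that removes class II from the surface, was at least 2.76-fold higher in TFH than in naive T cells and at least 4.82-fold higher in pLN TFR than in Treg cells. In pLN d12, Ctsl had a log2 change of -3.31 in TFR against TFH cells (SE 0.27, limma adjusted p 9.36e-05).

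Some receptors and ligands of class II-bearing cells were called. Of 6 genes, 2 were higher in TFH and 3 in Treg than in naive T cells, and 3 were higher in PP TFR than in PP Treg and than in PP TFH GL7+ cells, with none lower. The other genes did not pass in these comparisons, whose background shares are given above. The median log2 change of the 6 was 0.67 to 1.27 in these comparisons, against -0.09 to -0.03 over all tested probes. Without slide 4 the last 2 counts were 2 and 1. Lag3, a class II-binding receptor, was higher in TFH than in naive T cells by 5.05 (SE 0.34, limma adjusted p 7.53e-06) and in TFR than in Treg cells by 1.89 in pLN and 1.30 in PP. Cd83, which steadies class II at the surface, was higher by 2.94 in TFH and 2.80 in Treg cells than in naive T cells and by 1.84 in PP TFR than in PP Treg cells. Cd86, a costimulatory ligand, was higher in TFR than in TFH cells by 2.60 in pLN and 2.08 in PP. On slide 4 minus slide 5, the medians of the processing list stayed between -0.11 and 0.02 and those of the receptor list between 0.38 and 0.61. Single genes differed more. In Treg cells 3 processing and 2 receptor genes were at least 2-fold higher on slide 4, against 1 and 0 on slide 5. In TFR cells these counts were 2 and 1 on slide 4, against 0 and 0. Among them were Cd63 (5.77-fold) and Cd40 (6.09-fold) in TFR cells.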

How the data were processed

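Agilent Feature Extraction 10.7.3.1 made the scanner files, per the labels. The authors' methods took the background-subtracted intensity, averaged the 4 repeated spots per probe, then applied quantile normalisation, a 75th percentile of 1500 and a floor of 20. The deposited series matrix holds these intensity values. Values were rebuilt from the deposited scanner intensity in the same way (geometric means, without outlier features, features outside 1.42 interquartile ranges and features of a pixel coefficient of variation above 0.5) with a median absolute log2 difference from the matrix of 0.0347 to 0.0362. Tests used limma 3.58.1 in R 4.3.3 with 12 group means over 20 arrays (8 residual degrees of freedom), two-sided, with Benjamini-Hochberg adjustment over 22264 probes, each detected on the 2 arrays of some group. The d25 groups are assumed to vary like the others, but enter no test.

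Of the probes, 43.0% to 58.0% were detected per array and none was saturated. Local background was 24 to 78, and 268 for pLN d12 TFR on slide 2. Slides 1 and 4 received 50 ng of RNA per array and the others 40 ng, so input and slide cannot be told apart. Replicate numbers follow deposition order, and slides come from the array barcodes. RefSeq names matched 27508 probes by accession, 2017 with another symbol. Between genes with several probes, the brightest stands for the gene. Named list genes are those called with the largest change, or else up to 2 that define a list, and like genes the 10 of highest Pearson r. Folds against groups not well above background are bounds ("at least"), from the lowest detected intensity of each array. Members and lists were chosen with earlier results of these data known. The limma fit was tested on simulated data. Alternatives were the series matrix, 75th percentile scaling alone, normexp background, no floor, all probes tested, slide as a fixed or random block, only the compared groups, no slide 4, and each array left out. No Ciita or H2-Ab1 promoter and no protein sequence was used here. Some genes and probe sequences are not reported here.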

Additional observations from a re-analysis of the deposited data

How the results depend on the processing

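The count of called members was 0 under every alternative except slide as a fixed and as a random block, each of which gave 1 (H2-Oa) in TFR against TFH cells of pLN d12. Leaving out any 1 array gave 0 in every comparison. Without slide 4, H2-Oa had an adjusted p of 0.0766 there.

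The median member difference of PP minus pLN d12 ranged with 1 array left out from -0.33 to 3.59 in Treg cells, from -0.21 to 1.68 in TFH GL7+ cells and from -0.63 to 4.41 in TFR cells. The negative values came without PP replicate 1 (all 3) and without pLN d12 TFH replicate 2. Under the series matrix, 75th percentile scaling, normexp and no floor, these medians and those between the PP slides moved by less than the median spread between replicate arrays (0.84 on the log2 scale).

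No single-gene value changed sign outside the runs with 1 array left out. In those, Cd74 ranged from -0.32 to 2.53 (TFH GL7+ against TFH GL7-) and from -1.01 to 2.89 (PP TFR against Treg), H2-DMa from -1.73 to 0.45 (PP TFR against Treg), Ciita from -2.22 to 0.64 (TFH against naive T), H2-Oa from -0.00982 to 0.66 (pLN TFR against Treg) and H2-Ob from -1.35 to 0.94 (PP TFR against Treg). Named list genes kept their call in 328 repeats and lost it in 75. Arrays were not paired by replicate number because the labels carry none. The slide block and the within-slide differences pair arrays by slide instead. Signal over background limits genes near the floor.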
